A study of Mus musculus with 2 samples.

Results

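The Mir130 and Mir301 family consists of 4 mouse microRNA genes, Mir130a, Mir130b, Mir301 and Mir301b, out of 1973 microRNA genes measured. They were taken by gene symbol because they are known to give mature microRNAs with 1 common seed. No measured value entered that rule, but earlier results of these data were known when it was set. The measurement was microRNA-seq, the sequencing of small RNAs in total RNA, made from B6NCrl hindbrain on the day of birth (day 0). There are 2 libraries in 1 group, pup 3 and pup 1, with a hindbrain of each pup per the labels, no treatment or mutation named and sex not collected. Both pups carry 1 shared donor entry in the labels, so that the pup number is what separates them. With 1 group there is no condition to compare, and the data address how much of each gene the tissue contained and how close the pups were.

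A microRNA is cut from a hairpin precursor as a short RNA that guides silencing proteins to messenger RNAs, and bases 2 to 8 from its 5′ end, the seed, do most of the pairing. Genes with the same seed can therefore act on overlapping sets of targets even when they lie on different chromosomes. In this family the seed lies on the 3′ arm of each hairpin. Targets reported in other tissues include Pparg, a regulator of fat cell formation. In human endothelial cells miR-130a is known for a role in vessel growth.

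The mature microRNAs are shown because their letters decide both the family and which loci can be told apart by sequencing. They are RefSeq sequences (GRCm38.p6, the mm10 assembly), written 5′ to 3′ with the seed in capitals, and those of the 3′ arms are as follows.
mmu-miR-130a-3p: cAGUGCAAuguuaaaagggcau
mmu-miR-130b-3p: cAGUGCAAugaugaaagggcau
mmu-miR-301a-3p: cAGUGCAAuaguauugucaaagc

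These 3 share the seed AGUGCAA and the first 9 bases. Positions are counted from 1 at the 5′ end. miR-130a-3p and miR-130b-3p have 20 of 22 bases in common and differ by the substitutions U11A and A13G. Past the shared start the Mir301 type departs, with 12 of 22 bases in common with miR-130a-3p and 11 of 22 with miR-130b-3p. Each of the 4 precursors, Mir301b included, holds AGUGCAA once on its own strand, starting at base 43 of Mir130a, base 52 of Mir130b, base 52 of Mir301 and base 56 of Mir301b. Among all 2202 microRNA precursors of GENCODE M21, 13 (0.590%) hold these letters. The mature sequence of miR-301b-3p is named only.

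The 5′ arms are shown because the counts are per precursor, so reads of both arms are added together, and here the family divides by seed.
mmu-miR-130a-5p: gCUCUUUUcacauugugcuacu
mmu-miR-130b-5p: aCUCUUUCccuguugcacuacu
mmu-miR-301a-5p: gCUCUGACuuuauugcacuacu
mmu-miR-301b-5p: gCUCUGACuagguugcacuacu

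Mir301 and Mir301b share the 5′ arm seed CUCUGAC, and their 5′ arms have 19 of 22 bases in common, with the substitutions U10A, U11G and A12G from miR-301a-5p to miR-301b-5p. The 5′ arm seeds of Mir130a and Mir130b, CUCUUUU and CUCUUUC, differ from that one and from each other. A part of the counts given below could thus belong to RNAs with 3 other seeds, and how large that part is was not tested.

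The 4 genes lie at 3 loci, 2 of them inside introns of protein-coding genes. Mir130a (ENSMUSG00000065484.1) lies on the minus strand at chr2:84741115-84741178 (mm10, as for all coordinates) and overlaps no other gene of GENCODE M21. Its neighbours are Gm19426, which ends 990 bases upstream on the same strand, and Ypel4, which ends 2459 bases away on the opposite strand. Mir301 (ENSMUSG00000065589.1), the gene of miR-301a, lies at chr11:87113004-87113089 on the plus strand in intron 1 of Ska2, which encodes a part of the complex that holds chromosomes to the spindle. Mir130b (ENSMUSG00000065572.1) and Mir301b (ENSMUSG00000076288.1) form a cluster on the minus strand of chromosome 16, at chr16:17124061-17124142 and chr16:17124400-17124496. Both lie in intron 1 of 2610318N02Rik on its strand, 257 bases apart, with Mir301b upstream. Apart from this pair, no microRNA gene of the tables lies within 10 kb of a member.

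All 4 genes were detected in both pups, and Mir130a held most of the family's reads. Levels are raw counts on the strand of the gene and CPM, counts per 1000000 counts of the library over all microRNA genes (raw totals 3012320 in pup 3 and 2459757 in pup 1). Together the members had 86506 counts in pup 3 and 70501 in pup 1, which is 2.87% of counts in each library (exact 95% Clopper-Pearson intervals 2.85% to 2.89% and 2.85% to 2.89%). Of the family's counts, 83.7% in pup 3 and 83.8% in pup 1 came from Mir130a. Reads carry no molecular identifiers, so all intervals cover counting error only.

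Mir130a had 72410 counts in pup 3 and 59099 in pup 1, which is 24038 and 24026 CPM (mean 24032 ± 8.20 CPM, SD, n = 2). The pups were nearly equal on this scale. Exact intervals of the share of counts were 2.39% to 2.42% in pup 3 and 2.38% to 2.42% in pup 1. The SD thus lies below counting error and is no measure of precision. Mir130a ranked 8 and 9 among 1973 genes. Mirlet7i, of the let-7 family, stood directly above it with 26868 ± 3333 CPM, and Mir30e directly below with 20299 ± 1984 CPM (SD, n = 2 each). Mirlet7i was at 29225 CPM in pup 3 and at 24512 CPM in pup 1, where it exceeded Mir130a by 485 CPM, so these neighbours did not differ beyond the spread of Mirlet7i. Mir30e was at 18895 CPM in pup 3 and 21702 CPM in pup 1, both below Mir130a.

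Mir130b had 8105 counts in pup 3 and 7096 in pup 1, or 2691 and 2885 CPM (mean 2788 ± 137 CPM, SD, n = 2). Here pup 3 was the lower, and the ranks were 71 and 63. Its neighbours in the order of means, Mir872 at 2792 ± 294 CPM and Mir153 at 2752 ± 1042 CPM (SD, n = 2 each), did not differ from it beyond the spread between the pups.

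Mir301 had 5740 counts in pup 3 and 4119 in pup 1, or 1906 and 1675 CPM (mean 1790 ± 163 CPM, SD, n = 2). Pup 3 was the higher, the opposite of Mir130b, and the ranks were 82 and 90. Mir423 at 1799 ± 475 CPM and Mir300 at 1726 ± 224 CPM (SD, n = 2 each) stood next to it and did not differ from it beyond that spread.

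Mir301b had 251 counts in pup 3 and 187 in pup 1, or 83.3 and 76.0 CPM (mean 79.7 ± 5.16 CPM, SD, n = 2). It held 0.290% of the family's counts in pup 3 (interval from 0.255% to 0.328%) and 0.265% in pup 1 (from 0.229% to 0.306%), the smallest share of the 4 in both. Its ranks were 235 and 242, and the next genes, Mir429 at 82.0 ± 15.4 CPM and Mir106a at 77.8 ± 10.1 CPM (SD, n = 2 each), lay within the spread. In bulk tissue, fewer cells with a microRNA and less of it per cell cannot be told apart.

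**Figure D1:**
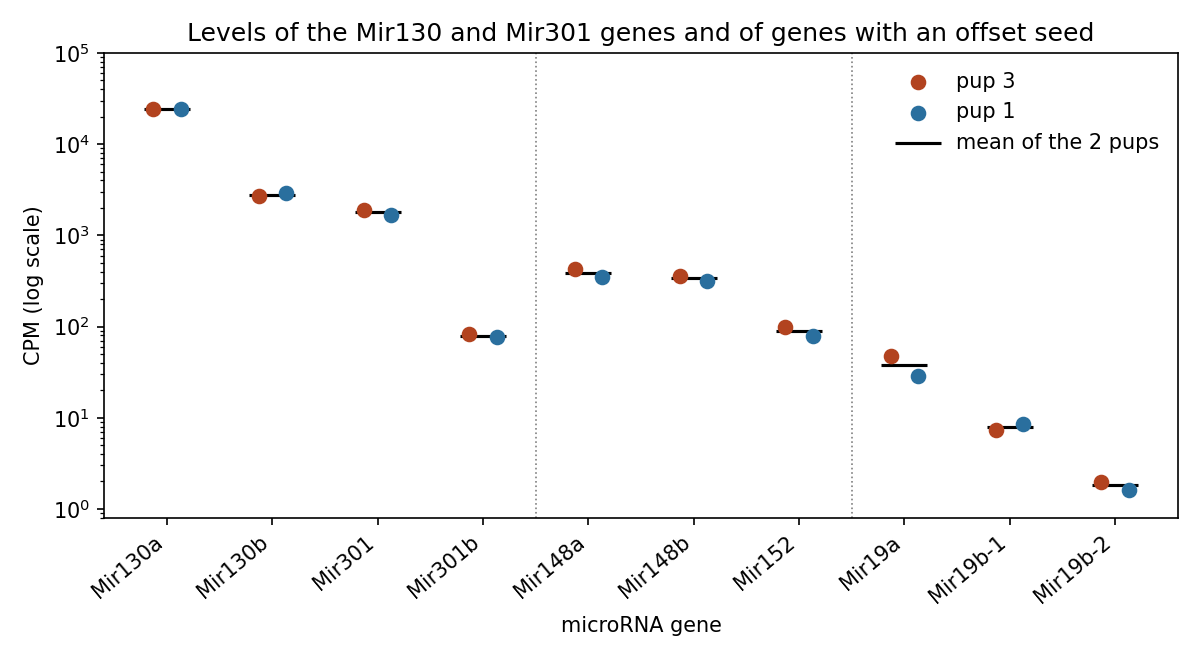
CPM on a log axis for the 4 Mir130 and Mir301 genes (left), the Mir148 and Mir152 genes (middle) and the Mir19 genes (right), with 1 point per pup, pup 3 left of pup 1, and a bar at the mean. The members run from 24032 CPM at Mir130a to 79.7 CPM at Mir301b, and the points of the pups lie close together beside these distances.

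**Figure D2:**
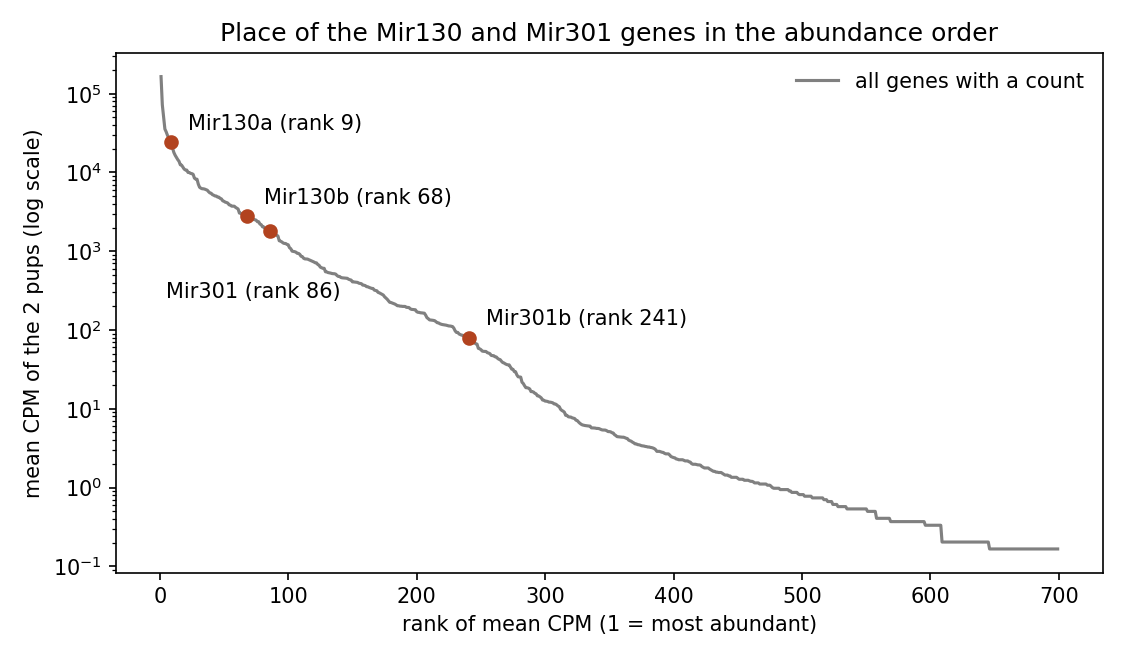
Mean CPM of the 2 pups (log axis) against rank for the 699 genes with a count in either pup, with the members marked. Mir130a is at rank 9, Mir130b at 68, Mir301 at 86 and Mir301b at 241.

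The order Mir130a, Mir130b, Mir301, Mir301b was the same in both pups. The members' mature RNAs listed above are 22 or 23 bases long. Lengths and arms of the counted reads were not analysed here, and levels are also given per length of precursor. Per base of precursor, at 64, 82, 86 and 97 bases, Mir130a had 376 and 375 CPM in pups 3 and 1, Mir130b 32.8 and 35.2, Mir301 22.2 and 19.5, and Mir301b 0.859 and 0.784. The order per length was the same, as it had to be, since precursor length rises from Mir130a to Mir301b while the level falls. Recovery of a small RNA in ligation and amplification can depend on its sequence, so ratios between loci were not calibrated to molecules.

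Ratios between loci within a library need no scaling of totals. Mir130a exceeded Mir130b 8.93 times in pup 3 (exact counting interval 8.73 to 9.14) and 8.33 times in pup 1 (8.13 to 8.54). It exceeded Mir301 12.6 times in pup 3 (12.3 to 12.96) and 14.3 times in pup 1 (13.9 to 14.8). Both ratios lay far from 1 beside the distance between the pups.

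The neighbours of the chromosome 16 cluster had unequal levels. Mir130b exceeded Mir301b 32.3 times in pup 3 (28.5 to 36.8) and 37.9 times in pup 1 (32.8 to 44.1), although both precursors lie in 1 intron on 1 strand. The ratio between the 2 Mir301-type genes on chromosomes 11 and 16 was 22.9 for Mir301 over Mir301b in pup 3 (20.2 to 26.1) and 22.03 in pup 1 (19.0 to 25.6). The closest levels in the family were those of Mir130b and Mir301, at a ratio of 1.41 in pup 3 (1.36 to 1.46) and 1.72 in pup 1 (1.66 to 1.79), and these intervals hold neither 1 nor each other's values.

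Reads that map to several loci were not assigned to genes, by the inferred layout of the tables, and were 42.03% of pup 3's reads and 40.2% of pup 1's. No member shares 20 bases or more with another annotated microRNA precursor outside its own locus, on either strand. The longest such stretch was 17 bases for Mir130a (with Mir6389), 16 for Mir130b (with Mir6368) and 16 between Mir301 and Mir301b. Other parts of the genome were not searched. The precursors have GC contents of 45.3% for Mir130a, 56.1% for Mir130b, 48.8% for Mir301 and 53.6% for Mir301b, and predicted folding energies (RNAfold) of -22.1, -30.1, -37.0 and -39.1 kcal/mol. The member with the highest level had the weakest predicted fold and the member with the lowest level the strongest, a description of 4 genes whose length follows the same order.

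**Figure D3:**
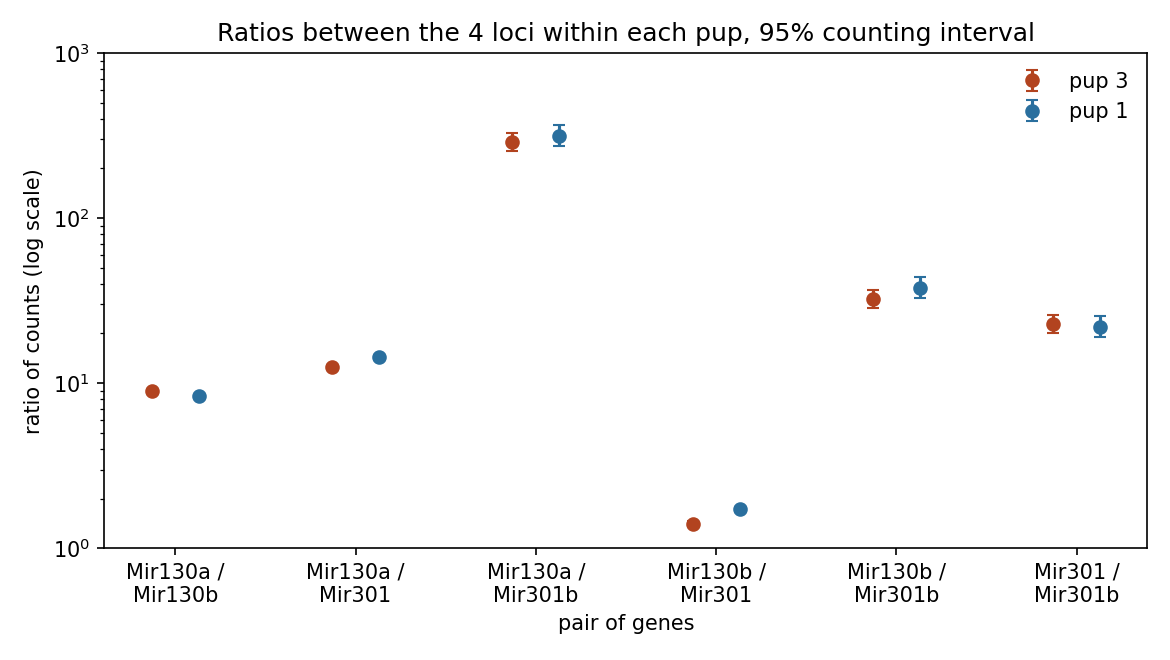
Ratios of counts for the 6 pairs of members on a log axis, pup 3 left of pup 1, with exact 95% counting intervals, wide for the pairs with Mir301b. The ratios run from 1.41 for Mir130b over Mir301 in pup 3 to 316 for Mir130a over Mir301b in pup 1.

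The ratios between members were tested between the pups with Fisher's exact test (two-sided, Benjamini-Hochberg over the 6 pairs), which covers counting error and has no replicate on either side. The 3 pairs without Mir301b passed and the 3 pairs with it did not. The share of all gene pairs that would pass was not computed, and 45.8% of tested genes passed the like counting test of single genes. All 6 differences were smaller in size than 0.34, the SD given below for the log2 fold of 1 gene between the pups. The ratio of Mir130b to Mir301 differed most, with a log2 ratio of pup 3 over pup 1 of -0.29 (Fisher's exact test, adjusted p = 1.5e-13), so that Mir130b was relatively lower and Mir301 relatively higher in pup 3. Mir130a over Mir301 differed by -0.19 (Fisher's exact test, adjusted p = 3.35e-09) and Mir130a over Mir130b by 0.10 (Fisher's exact test, adjusted p = 8.99e-05). For the cluster pair Mir130b and Mir301b the log2 ratio was -0.23 (Fisher's exact test, adjusted p = 0.163), close in size to the others but resting on 251 and 187 counts of Mir301b.

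Between the pups each member's level differed little. Folds are pup 3 over pup 1 on the log2 scale, with totals scaled by TMM, which lowers every fold by 0.084 relative to plain totals. By the exact binomial test of each gene's pair of counts (Benjamini-Hochberg over 395 genes), 3 of 4 members passed, where 45.8% of all tested genes did. This test covers counting error alone and compares 2 libraries, so deeply counted genes pass at small folds. Mir130b was lower in pup 3 (log2 fold -0.18, interval -0.23 to -0.14, exact binomial adjusted p = 1.97e-14), as was Mir130a (-0.084, interval -0.099 to -0.068, adjusted p = 1.28e-24). On plain totals Mir130a had a log2 fold of 0.00069 (exact binomial adjusted p = 0.976), so its call depends on the scaling. Mir301 was higher in pup 3 (0.10, interval 0.044 to 0.16, exact binomial adjusted p = 0.00152), and Mir301b had a log2 fold of 0.047 (interval -0.23 to 0.33, exact binomial adjusted p = 0.848). With TMM factors set by the 395 tested genes, Mir301 had a log2 fold of 0.059 and did not pass (exact binomial adjusted p = 0.0932). On plain totals its log2 fold was 0.19 (exact binomial adjusted p = 9.51e-10).

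Set against the spread between animals, no member stood out. The common biological coefficient of variation over 361 genes was 16.6% (edgeR), or, for the log2 fold of 1 pup over another, an SD of 0.34, and the members' folds came to between 0.140 and 0.549 of that SD. All 4 lay inside 1 SD, where 33.2% of tested genes lay outside. The median absolute log2 fold was 0.093 for the members and 0.22 for all 395 tested genes. By edgeR's negative binomial exact test with that dispersion, 0 of 4 members passed (smallest unadjusted p = 0.588), against 0.506% of all genes tested. That dispersion comes from the same 2 libraries. The difference in Mir130b was thus larger than counting error and smaller than that SD. The median and the share outside 1 SD take in genes of few counts, whose folds also carry counting error. The members were not set against genes of like level alone.

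**Figure D4:**
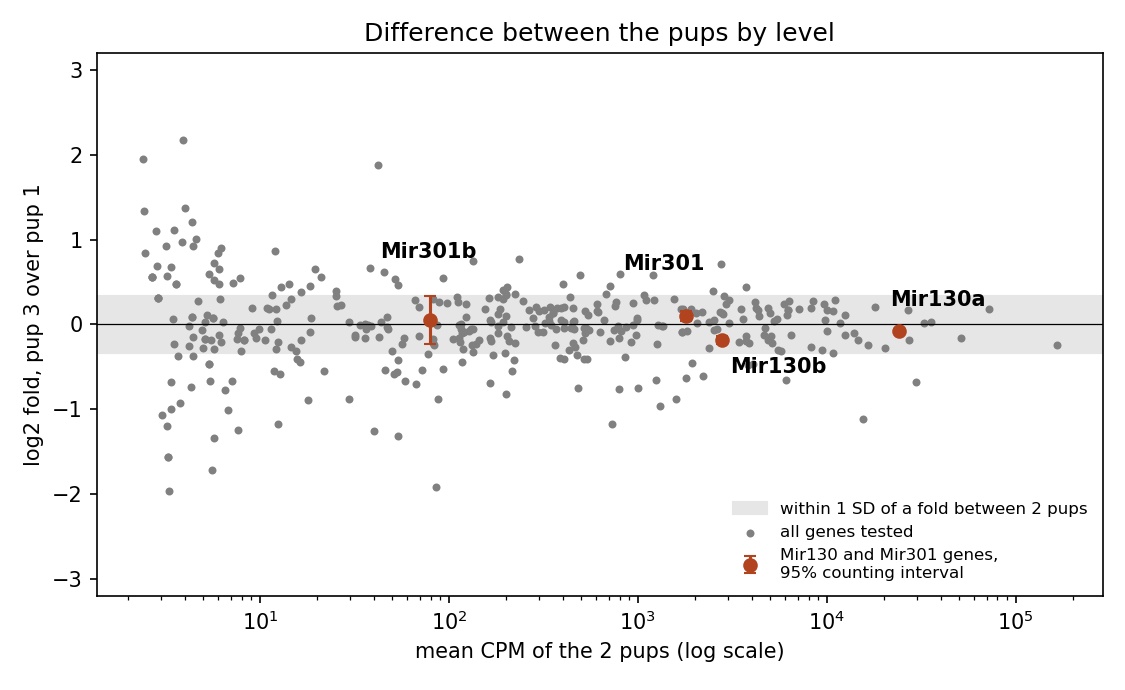
Log2 fold of pup 3 over pup 1 against mean CPM (log axis) for 395 tested genes (grey), with the members in colour and their 95% counting intervals, and a grey band for 1 SD (0.34) of such a fold. All 4 members lie inside the band, and the interval is wide for Mir301b alone.

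Of the other mouse genes with the seed AGUGCAA, the 3 analysed here had no counts. The RefSeq table holds 7 mature microRNAs with this seed (0.403% of 1738), 3 of them the members' and 4 from other genes, shown here because they differ from the members past the seed.
mmu-miR-130c: cAGUGCAAuguuccaaggugug
mmu-miR-6341: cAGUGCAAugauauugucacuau
mmu-miR-6389: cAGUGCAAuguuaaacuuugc
mmu-miR-721: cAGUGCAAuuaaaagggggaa

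Mir130c, Mir6341 and Mir6389 had 0 counts in both pups, which allows up to 0.996 CPM in pup 3 and 1.22 CPM in pup 1 each. That limit covers counting error of reads assigned to 1 locus, and leaves out any reads that map to several loci. Mir721 had no row among the measured genes and so could not be analysed. miR-6389 begins with the first 15 bases of miR-130a-3p, and miR-130c with its first 12, so reads of these could be told from Mir130a only by their later bases.

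Of microRNAs whose seed is shifted by 1 base against this one, both kinds had lower summed levels. The examples shown are the leading member of each.
mmu-miR-148a-3p: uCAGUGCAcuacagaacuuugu
mmu-miR-19a-3p: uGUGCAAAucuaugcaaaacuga

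Mir148a, Mir148b and Mir152 together came to 884 CPM in pup 3 and 750.1 CPM in pup 1 (mean 817 ± 94.96 CPM, SD, n = 2), against 28717 and 28662 CPM for the Mir130 and Mir301 genes (mean 28690 ± 39.3 CPM). Mir148a led them with 428 and 354 CPM, less than Mir301 and more than Mir301b. The Mir19 genes summed to 57.1 CPM in pup 3 and 38.6 CPM in pup 1. Of these, Mir19b-1 and Mir19b-2 share 25 bases with each other, so their reads may be among those that map to both, while Mir19a shares at most 13 bases with any other precursor and had 47.8 and 28.5 CPM.

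Markers of the tissue were present, but not all of those listed were at high levels. Neuronal microRNAs (8 genes, 5 of them at 10 CPM or more in both pups) summed to 41137 CPM in pup 3 and 38260 CPM in pup 1. Mir149 gave the most, with 15600 and 17477 CPM. The listed copies of Mir124a did not reach 10 CPM in both pups, with 9 and 4 counts for Mir124a-2 and 2 and 3 for Mir124a-3. Whether they lost reads that map to several loci was not tested. On the neural progenitor list Mir9-1 had no row, and the other 3 genes summed to 3095 and 3363 CPM. Mir92b gave most of this, with 2661 CPM in pup 3 and 2838 CPM in pup 1. Mir9-3 had 433 and 524 CPM, and Mir9-2 did not reach 10 CPM in both pups. Mir10a and Mir10b, encoded in Hox clusters and known from caudal parts of the nervous system, summed to 33740 and 56575 CPM, and were thus higher in pup 1. Vessels were part of the tissue, with 36931 CPM in pup 3 and 34216 CPM in pup 1 for the endothelial Mir126a, and 9720 and 7629 CPM for Mir143 and Mir145a of smooth muscle. Which of these cells held the members was not tested. The lists for leukocytes (229 and 169 CPM), striated muscle (125 and 98.4 CPM), red blood cells (105 and 151 CPM) and liver (45.5 and 41.9 CPM for Mir122) were far lower. The 2 red blood cell genes went opposite ways, with 67.1 CPM in pup 3 and 17.1 CPM in pup 1 for Mir144. Mir451a had 37.5 and 134 CPM, so their sum does not give a difference between the pups. Mir142b of the leukocytes and 3 of 4 striated muscle genes were at 0 counts in both pups. Their sums are thus those of Mir223 and of Mir206 alone, and Mir142 and Mir1a-2 of these lists had no row. By the inferred layout, reads that map to several loci were not counted, so a count of 0 does not show that the RNA was absent. The libraries were not copies of each other, since a chi-square test over the tested genes gave 49286 with 394 degrees of freedom.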

How the data were processed

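The authors deposited, for each of 2 libraries, raw read counts for 1973 microRNA genes on mm10 with GENCODE M4, as the deposited file listings state. The aligner, counter or adapter trimming is not given in the sources used here. Of 3 count columns, the first equals the sum of the others in every gene row. The column holding nearly all reads was taken as the strand of the gene, and totals omit the 4 rows without a gene name (58.0% of reads in pup 3, 57.7% in pup 1). Symbols and coordinates come from GENCODE M21 and sequences from RefSeq. The members and lists were chosen with earlier results of these data known.

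Counts were scaled to CPM over gene rows. Folds have a prior of 0.5 counts and TMM factors (edgeR 4.0.16, R 4.3.3) from genes reaching 10 counts in each library. That choice was made on simulated data after the deposited data had been seen. Among the scalings, the call of Mir301 was lost with TMM factors from genes reaching 10 counts in either library. It was kept with plain totals, DESeq2 size factors and TMM over all genes. The script was tested on the same kind of simulated data. Genes reaching 10 counts in pup 3 or pup 1 entered the exact binomial test (scipy 1.17.1, threshold 0.05). The quasi-likelihood test of edgeR could not be fitted without replicates of each pup. Alternatives were plain totals, DESeq2 1.42.0 size factors, other TMM gene sets, other count filters, either-strand counts, all reads as total and a negative binomial exact test. Precursors were folded with RNAfold (ViennaRNA 2.7.2). Nothing else in the labels separates the pups, so p-values measure only the difference of these libraries. Genes named beside the members were those with the same or an offset seed, those within 10 kb and the next gene above and below in mean CPM. A precursor with 0 counts was given a limit of 3 counts.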

Additional observations from a re-analysis of the deposited data

Results flagged for a closer look

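Reads on the opposite strand of a member, which no comparison above uses, were seen at Mir130a only. There were 5 in pup 3 and 1 in pup 1, against 72410 and 59099 on the strand of the gene. Mir126a, another abundant gene, had 2 in each pup. Whether the 5 exceed the background of such reads over all genes was not tested. Mir130b, Mir301 and Mir301b had 0 in both pups.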

How the results depend on the processing

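The summed share of the 4 members, 2.87%, was 2.78% of either-strand counts and 1.21% of all reads, multimapped and unmapped ones included, and stayed at 2.87% without either pup. The order of the 4 loci was the same in all these, but none could have altered it. A change of total scales all 4 alike, and either-strand counts added reads at Mir130a alone, 5 in pup 3 and 1 in pup 1. Leaving out a pup repeats the order of the other. Of 4 members, 3 differed between the pups beyond counting error (45.8% of all 395 tested genes did), and 0 did under the negative binomial exact test (0.506% of all), which adds the spread between the pups by its construction. Mir130a changed sign on plain totals, to a log2 fold of 0.00069, where the TMM shift of -0.084 is as large as its fold. Mir301 lost its call (log2 fold 0.059) with TMM factors from all 395 tested genes, an alternative chosen after seeing the data, as was TMM over all genes. On plain totals 2 of 4 members passed (48.4% of all tested genes), and with those factors 2 of 4 (45.8%). Of 72 values recomputed under an alternative, 58 kept direction and call, moved within 1 SD or, for a count of calls, stayed within 1.5 times, which takes in these counts of 2. The 3 pairs of loci that differed also did so with either-strand counts, which could hardly change them. Those counts are the same for Mir130b, Mir301 and Mir301b and nearly the same for Mir130a. Folds and ratios between the pups have no value without 1 of the pups. No paired analysis was possible because there is 1 group. Counts of 251 in pup 3 and 187 in pup 1 limit the statements on Mir301b.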

Other observations

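The cluster of Mir130b and Mir301b can be set beside other microRNA neighbours in the tables, a comparison chosen after its values were seen. There were 112 pairs of adjacent precursors on 1 strand within 10 kb with at least 10 counts in both libraries for each gene. The ratio of the higher to the lower mean CPM had a median of 6.70 (quartiles 2.83 and 43.0), and it was 35.0 for Mir130b over Mir301b. In 32 pairs (28.6%) the ratio was larger, so unequal counts of neighbours as far apart as these were common in the libraries. Pairs that share a gene or a cluster are not independent, and pairs with precursors that share sequence with other loci, as Mir20a over Mir19b-1 at a ratio of 615, were not left out.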
